A study of Mus musculus with 16 samples.

Results

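Kidneys of aged mice that had received Yukmijihwang-tang (YM), a herbal formula, were compared with kidneys of untreated aged mice across all genes with enough counts. The comparison takes in 8 of the 16 libraries of the study, 3 labelled Old + YM and 5 labelled Old, chosen by their labels and not by any measured value. All mice were male, wild-type C57BL/6. Old + YM mice were given 100 mg/kg/day of YM by mouth on 5 days of each week, starting at 19 months and ending at 24 months. Old mice were the natural ageing group, but the labels do not state how old they were when the kidneys were taken. A 5-month acclimatization is stated for the aged groups. Values of 3 libraries of aged mice given Palmijihwang-tang (PM) at that dose and schedule (Old + PM), and of 5 libraries of untreated mice 3 months of age (Young), stand beside some results. A second passage of the design text names YM for the PM group, and the group label was followed. Each library was made from 500 ng of total kidney RNA with QuantSeq, which reads the 3′ end of transcripts. The labels do not tie a library to its own mouse, so p-values measure the spread between libraries, which may be partly technical.

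The kidney filters blood and returns most of the filtrate through a chain of tubule segments. The proximal tubule takes back the bulk of it with energy from mitochondria that burn fatty acids, and the distal tubule and collecting duct set salt, calcium and water balance. With age the organ gains immune cells and scar tissue and loses some of its mitochondrial and transport capacity. YM is a decoction of several herbs used in traditional Korean medicine.

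Total counts were 8223008 to 8995881 in Old + YM and 9017102 to 10565860 in Old, so each Old + YM library was shallower than each Old library. Of 40879 genes listed, 24634 had a count in any of the 16 libraries and 14665 had enough counts to be tested. Expression is given in CPM, the count of a gene scaled to a common library size, and 1 CPM is about 8.2 counts in the shallowest library. For single genes the library size was adjusted by TMM scaling. Summed levels of lists take in all listed genes and use the total counts without TMM, so they are not on the same scale. The libraries held the defining transcripts of kidney: over the 16 libraries the proximal tubule phosphate transporter Slc34a1 ran from 3274 to 5306 CPM, the endocytic receptor Lrp2 from 538 to 1183, the thick ascending limb protein Umod from 926 to 1729, the distal sodium chloride transporter Slc12a3 from 354 to 645, the collecting duct water channel Aqp2 from 131 to 392 and the podocyte protein Nphs1 from 4.57 to 10.6 CPM. Old 5 stood apart from the other Old libraries in immune transcripts, and Young 5 from the other Young libraries in many transcripts.

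Only 3 of the 14665 tested genes (0.0205%) differed between Old + YM and Old at an adjusted p under 0.05 in edgeR's quasi-likelihood test with Benjamini-Hochberg adjustment, and all 3 were higher in Old + YM. They were Usp19, Rps6 and Arhgef10l. Among genes lower in Old + YM none passed, and the smallest adjusted p there was 0.0992, for Uap1l1. Before adjustment, 672 genes were higher (4.58%) and 718 lower (4.9%) with p under 0.05, together 1390 where an evenly spread p would give 733.25. The CPM of every Old + YM library lay above that of every Old library for 755 genes (5.15%) and below it for 580 (3.95%). Over all tested genes the median log2 difference was -0.03.

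**Figure D1:**
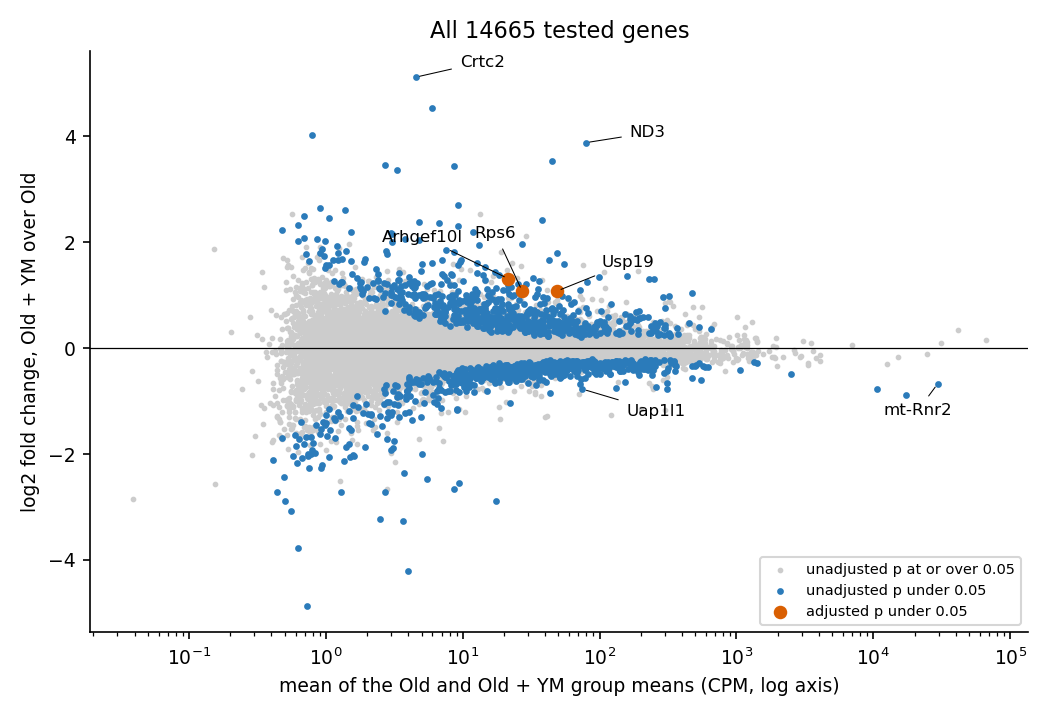
Log2 fold change of Old + YM over Old (vertical axis) against the mean of the 2 group means in CPM (log axis) for the 14665 tested genes, 1 point per gene. The 3 genes that passed at an adjusted p under 0.05 (Usp19, Rps6 and Arhgef10l) lie above 0, and the 1390 genes at an unadjusted p under 0.05 lie on both sides of 0, among them ND3 at log2 3.88.

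Usp19 encodes a deubiquitinating enzyme, with a form anchored in the endoplasmic reticulum, that takes ubiquitin off proteins and has been studied in protein quality control and muscle wasting. It lies on chromosome 9 (108490602 to 108502337, plus strand, GRCm38). Its levels were 32.1, 31.2, 33.6, 25.7 and 34.6 CPM in the 5 Old libraries and 68.1, 70.1 and 61.3 CPM in the 3 Old + YM libraries. The groups were far apart, and within each the libraries lay close together. The fold change was 2.11 (log2 1.08, SE 0.16, edgeR adjusted p = 0.0245). In Old + PM the levels were 34.5, 30.4 and 27.4 CPM, in the range of Old. Young 1 to Young 4 had 34.8 to 39.4 CPM, whereas Young 5, which received no formula, had 62.4 CPM, inside the range of Old + YM.

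Rps6 encodes a protein of the small ribosomal subunit that is phosphorylated downstream of mTOR signalling. It lies on chromosome 4 (86854660 to 86857412, minus strand). Old libraries had 17.4, 15.6, 20.3, 13.7 and 19.97 CPM, and Old + YM libraries 34.1, 36.6 and 39.9 CPM. All 3 treated libraries were above all 5 controls, by 2.12-fold in the fit (log2 1.08, SE 0.18, edgeR adjusted p = 0.0339). Old + PM had 22.2, 17.1 and 13.9 CPM and Young 11.8 to 19.7 CPM, with Young 5 the highest, so no library outside Old + YM reached its range. Ribosomal protein genes have near-identical processed copies, and no label says how ambiguous reads were counted. The level of Rps6 is therefore uncertain, as are those of Rpl30 and the other ribosomal protein genes below. The mean log2 CPM of the cytosolic ribosomal protein genes was 7.76 to 8.05 in Old, far above the level of Rps6. Arhgef10l, a guanine nucleotide exchange factor for small GTPases, lies on the same chromosome (140514485 to 140666012, minus strand). It had 12.9, 11.1, 11.2, 14.5 and 11.7 CPM in Old and 25.4, 37.0 and 29.5 CPM in Old + YM. Its fold change was the largest of the 3 that passed, 2.49 (log2 1.31, SE 0.22, edgeR adjusted p = 0.0339), and its Old + YM libraries varied more. Old + PM had 14.3, 9.91 and 17.1 CPM. Young 1 to Young 4 held 20.9 to 22.3 CPM, above every Old library, and Young 5 held 42.3 CPM, above every Old + YM library. Exons of these 3 genes overlap no other annotated gene in GENCODE M21.

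**Figure D2:**
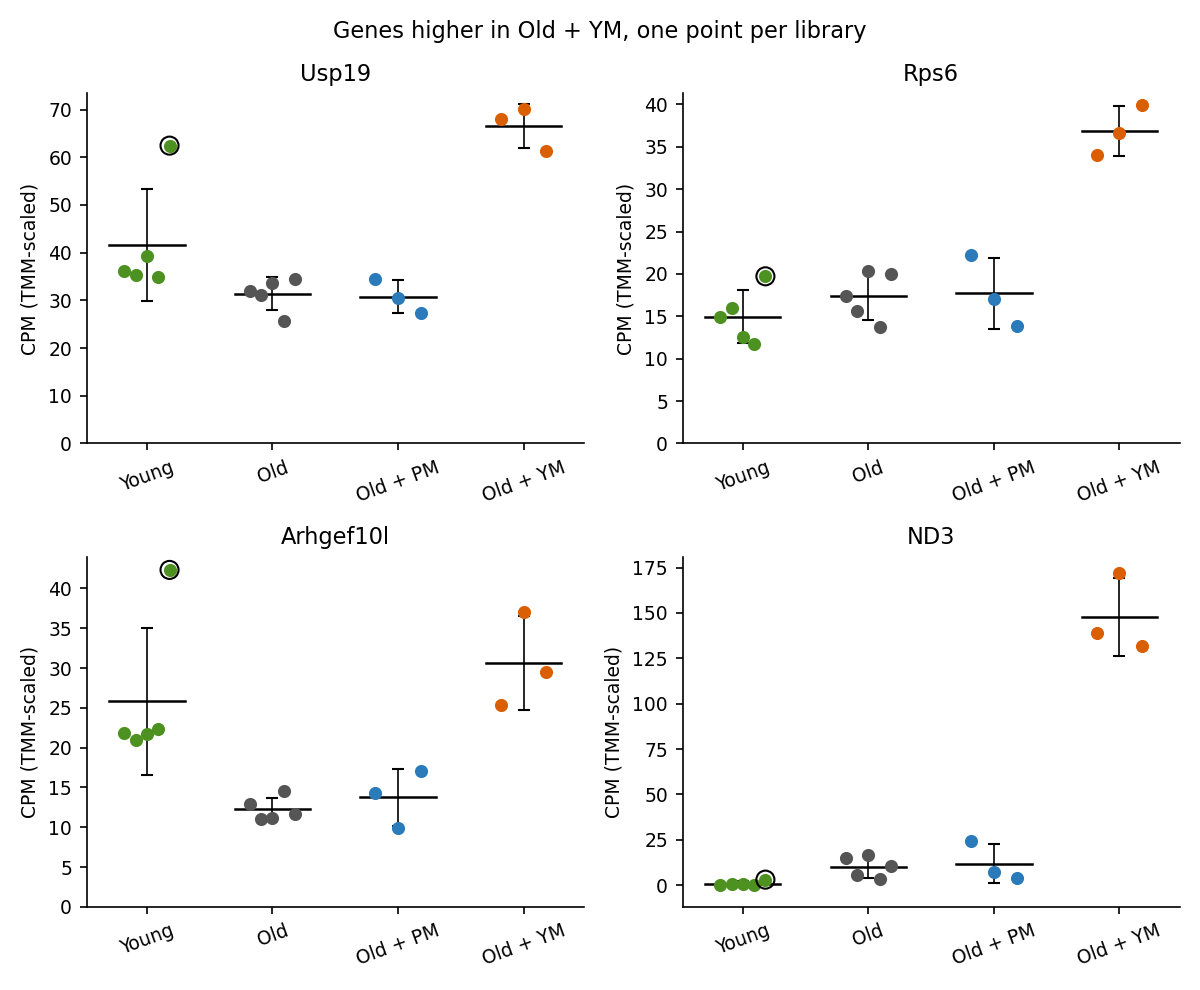
CPM of Usp19, Rps6, Arhgef10l and ND3 in each library (vertical axis, TMM-scaled), by group; points are libraries, bars the group mean and whiskers the SD, and a ring marks Young 5. Old + YM libraries lie above all Old libraries in each panel, at 61.3 to 70.1 CPM for Usp19, and Young 5 lies far above the other Young libraries for Usp19 (62.4) and Arhgef10l (42.3).

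All 3 calls were close to the threshold and were lost with nearly any single library left out. When each of the 8 libraries was left out in turn, Usp19 passed only without Old 5 (adjusted p = 0.0411) and reached 0.346 without Old + YM 2; Rps6 had adjusted p from 0.0555 to 0.347 and Arhgef10l from 0.0666 to 0.454, so both lost the call whichever library was left out. Directions held: the log2 changes stayed between 1.04 and 1.15, 1.03 and 1.16, and 1.16 and 1.45.

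The 250 bases before a RefSeq transcript start of these genes (GRCm38.p6) are shown because the 3 genes passed. Whether they are regulated together was not tested. Sequences run 5′ to 3′ on the gene's strand, with matches to promoter motifs, searched on both strands, in capitals. The motifs were the TATA box (TATAAA), the CCAAT box (CCAAT), the GC box (GGGCGG), the cAMP response element (TGACGTCA), the E-box (CACGTG), the ETS core (CCGGAA) and the NRF1 site.
Usp19, chr9:108490426-108490675: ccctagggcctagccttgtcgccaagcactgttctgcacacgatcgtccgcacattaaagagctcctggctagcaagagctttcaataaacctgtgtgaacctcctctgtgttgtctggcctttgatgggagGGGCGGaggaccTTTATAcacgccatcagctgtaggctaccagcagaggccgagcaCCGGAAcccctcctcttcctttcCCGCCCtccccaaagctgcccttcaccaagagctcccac
Rps6, chr4:86857368-86857617: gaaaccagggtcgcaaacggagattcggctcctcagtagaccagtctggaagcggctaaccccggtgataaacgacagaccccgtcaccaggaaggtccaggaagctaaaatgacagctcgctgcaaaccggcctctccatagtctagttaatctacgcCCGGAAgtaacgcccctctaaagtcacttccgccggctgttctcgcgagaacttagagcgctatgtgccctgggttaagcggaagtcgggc
Arhgef10l, chr4:140665906-140666155: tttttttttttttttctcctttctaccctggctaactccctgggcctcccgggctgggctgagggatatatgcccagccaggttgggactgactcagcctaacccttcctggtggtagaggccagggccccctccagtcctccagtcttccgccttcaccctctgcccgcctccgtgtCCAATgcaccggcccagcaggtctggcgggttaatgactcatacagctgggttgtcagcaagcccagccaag
The Usp19 window holds 1 TATAAA, 2 GC boxes and 1 CCGGAA, that of Rps6 1 CCGGAA, and that of Arhgef10l 1 CCAAT. Of 32851 RefSeq promoter windows of that length, 12.4% hold TATAAA, 32.7% the GC box, 12% CCGGAA and 33.8% CCAAT. No motif of this set was in all 3 windows. The outermost GENCODE starts given above lie inside the windows, so part of each window, with some of the matches, is within the gene in that annotation.

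The gene with the largest difference among those named by the rule was ND3, a subunit of respiratory complex I encoded by the mitochondrial genome (positions 9459 to 9806, plus strand). Old libraries held 14.7, 5.36, 16.7, 3.12 and 10.3 CPM of ND3 and Old + YM libraries 139, 172 and 132 CPM. The groups did not overlap, and the fold change was 14.7 (log2 3.88, SE 0.63), yet ND3 did not pass (edgeR adjusted p = 0.0992). With limma-voom it did (adjusted p = 4.03e-05), and its log2 change was 2.87 to 4.16 over the 19 alternatives tried. Old + PM had 24.1, 7.43 and 4.14 CPM. Young 1 to Young 4 had 0 to 0.709 CPM and Young 5 had 3.02 CPM. The other 7 tested coding transcripts of the mitochondrial genome had unadjusted p at or above 0.117: CYTB, of complex III, had 46295 CPM in Old + YM against 36439 in Old (log2 0.35), and ND2 11344 against 13971 (log2 -0.30).

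Mitochondrial ribosomal RNA made up 3.22% ± 0.271 (SD, n = 3) of counts in Old + YM and 5.05% ± 0.912 (n = 5) in Old. By library the shares were 3.07%, 3.53% and 3.05% in Old + YM and 5.33%, 4.06%, 6.17%, 5.54% and 4.17% in Old, with no overlap. The exact permutation test over the 56 assignments gave p = 0.0357 (two-sided, smallest possible 0.0179) and 0.143 after adjustment over the 4 shares tested, which does not pass. The genes of the small and large subunit, mt-Rnr1 (log2 -0.77) and mt-Rnr2 (log2 -0.67), both had an edgeR adjusted p = 0.183. Coding mitochondrial transcripts took 17.3% ± 3.28 (n = 3) and 15.2% ± 1.44 (n = 5), exact p = 0.268, and all mitochondrial counts 20.6% ± 3.54 and 20.3% ± 1.68, exact p = 0.839. Gm26917, a noncoding RNA gene on chromosome 17 (39843013 to 39846341) chosen for its share after its values were seen, took 1.26% ± 0.280 and 2.29% ± 0.547, with exact p = 0.0714 and 0.143 adjusted. Young 5 had the lowest shares of Young in both ribosomal RNA (4.54%) and Gm26917 (1.62%), and the highest in coding mitochondrial transcripts (23.2%).

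**Figure D3:**
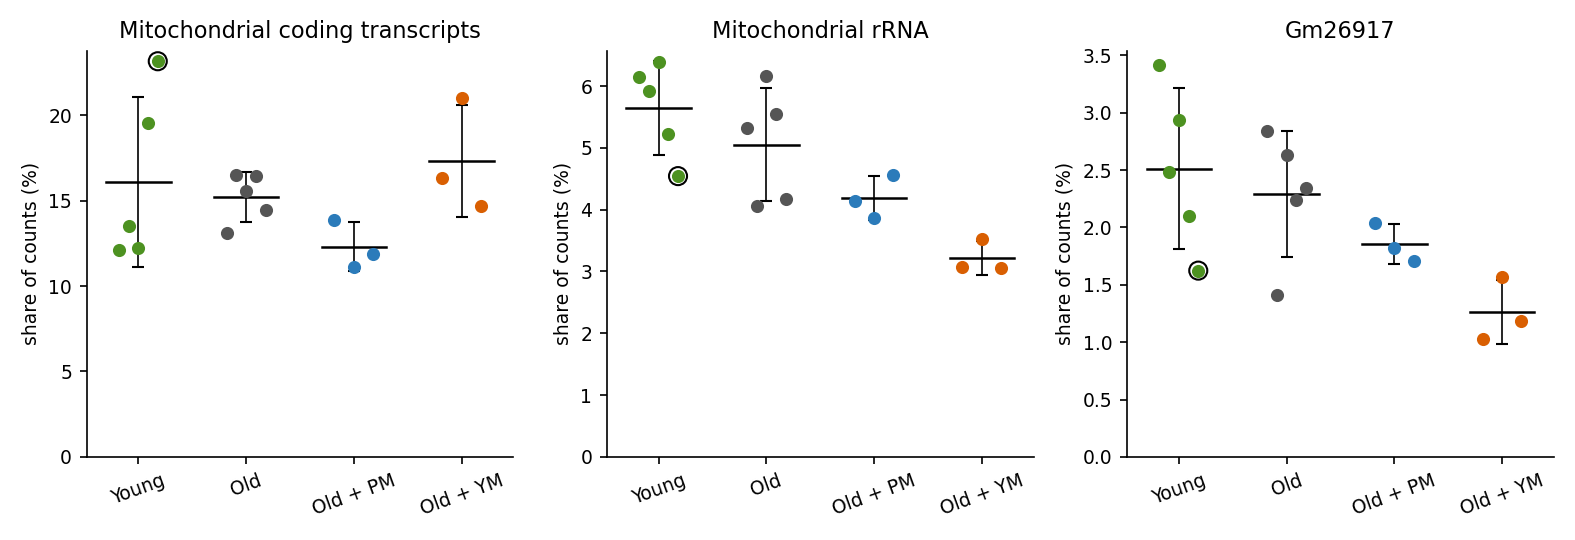
Share of all counts (vertical axis, %) from mitochondrial coding transcripts, mitochondrial rRNA and Gm26917 in each library; points are libraries, bars the group mean and whiskers the SD, and a ring marks Young 5. In rRNA the 3 Old + YM libraries lie at 3.05% to 3.53%, below the lowest Old library at 4.06%.

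The rest of the 12 genes with the smallest p among those higher in Old + YM did not pass, at edgeR adjusted p from 0.147 to 0.158, and none of them overlapped between the groups. Their levels were as follows. Hao2, a peroxisomal hydroxyacid oxidase of the kidney and liver, had 171, 165, 199, 143 and 151 CPM in Old and 219, 227 and 298 CPM in Old + YM (log2 0.58, SE 0.12). Micos10, a subunit of the complex that shapes the cristae of mitochondria, had 104 to 123 CPM in Old and 160, 169 and 161 CPM in Old + YM (log2 0.51, SE 0.11). The splicing factor Hnrnpa2b1 had 125 to 174 CPM in Old and 223 to 244 CPM in Old + YM (log2 0.58). Psenen, a subunit of gamma-secretase, had 6.53 to 9.76 against 14.5 to 17.1 CPM, and Trappc6b, of a vesicle tethering complex, 9.16 to 11.7 against 15.8 to 17.2 CPM. In 3 of these genes Old + YM 2 was far above the other treated libraries. Id4, an inhibitor of helix-loop-helix transcription factors, had 36.2, 73.6 and 44.0 CPM in Old + YM and 11.99 to 27.6 CPM in Old. Numb, a regulator of Notch signalling, had 9.32, 19.5 and 7.57 CPM against 4.58 to 6.16 CPM in Old. Atn1, a transcriptional corepressor, had 12.8, 21.5 and 6.95 CPM against 2.92 to 6.72 CPM in Old, and its last exon overlaps another annotated gene.

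The 12 genes with the smallest p among those lower in Old + YM had edgeR adjusted p from 0.0992 to 0.237, and none passed. Their group ranges did not overlap. Uap1l1, a relative of the enzyme that makes UDP-N-acetylglucosamine, had 80.4, 92.6, 78.3, 112 and 108 CPM in Old and 65.4, 49.9 and 50.2 CPM in Old + YM (log2 -0.77, SE 0.15). Cpe, a carboxypeptidase that trims peptide hormones, had 47.8, 58.3, 52.6, 70.7 and 50.7 CPM in Old and 30.7, 32.2 and 29.96 CPM in Old + YM (log2 -0.86, SE 0.19). Rnu11, the U11 RNA of the minor spliceosome, had 6.79 to 9.16 CPM in Old and 1.55 to 2.55 CPM in Old + YM (log2 -1.999), but Young 1 to Young 5 had only 0.413 to 4.64 CPM, so Old was the group apart. Tnfaip8, a regulator of cell death induced by TNF, had 296 to 479 CPM in Old and 194 to 266 CPM in Old + YM (log2 -0.67). Old + PM was at 248 to 264 CPM of Tnfaip8, also below every Old library. The nucleolar chaperone Npm1 had 144 to 175 against 110 to 129 CPM (log2 -0.42). Kpna3, an importer of proteins into the nucleus, had 27.5 to 34.5 against 19.8 to 22.3 CPM (log2 -0.58). The chromatin remodelling genes Baz1a (log2 -0.66) and Srcap (log2 -1.17) were also in this set, as were Lrrc58 (log2 -0.64), a leucine-rich repeat gene, and Smim24 (log2 -0.82), of a small membrane protein. Srcap, Lrrc58 and Rnu11 each share last-exon sequence with other annotated genes. Among genes named in other paragraphs, the last exons of Csf1r, Grn, Ctsz, Irs1, Cebpb, Slc34a1 and Umod also overlap other annotated genes.

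Gene lists for nephron segments, other kidney cells and pathways were read by the share of tested members at an unadjusted p under 0.05, beside the 4.58% (higher) and 4.9% (lower) of all tested genes. Apart from Usp19 and Rps6 no member of any list passed after adjustment. Of 36 proximal tubule genes 2 were higher and 4 lower, with a median log2 of -0.06, and 1 was lower without Old + YM 2. Miox, the enzyme that breaks down inositol in the proximal tubule, had 2575, 2890.0, 2594, 4005 and 2689 CPM in Old and 2326, 2038 and 1922 CPM in Old + YM (log2 -0.49, SE 0.15). The lactate and nicotinate transporter Slc5a12 had 463 to 586 CPM in Old and 371 to 448 CPM in Old + YM (log2 -0.34). In the distal convoluted tubule and calcium transport list 4 of 13 were lower (30.8%, and 2 without Old 4) and none higher, median log2 -0.19 (-0.06 without Old + YM 2). These included the magnesium channel Trpm6, with 21.3 to 27.5 CPM in Old and 15.3 to 19.4 CPM in Old + YM (log2 -0.59), and the calcium-binding protein Calb1 (log2 -0.35), whose groups overlapped. Of 12 collecting duct principal cell genes 3 were higher (25%) and none lower, median log2 0.25 (0.11 without Old + YM 2), and the count was 3 to 5 whichever library was left out. The fitted change was above 0 in 10 of the 12 and below 0 in 2. The collecting duct water channel Aqp2 was not higher, with 183 to 383 CPM in Old and 131 to 250 CPM in Old + YM. Aqp3, the basolateral water channel, had 16.7, 16.8, 15.2, 18.03 and 11.8 CPM in Old and 26.0, 46.1 and 22.7 CPM in Old + YM (log2 1.003, SE 0.23). Scnn1g, the gamma subunit of the epithelial sodium channel, had 2.89 to 5.01 CPM in Old and 10.6, 15.2 and 6.03 CPM in Old + YM (log2 1.36). Young 5 was the highest Young library for both, with 33.1 and 15.1 CPM against at most 18.8 and 6.17 CPM in Young 1 to Young 4. Of 13 thick ascending limb genes 1 was higher, the claudin Cldn10 (log2 0.41), and Egf, the growth factor of that segment, had log2 0.44 with an unadjusted p of 0.063. In the endothelial list 1 of 18 genes was lower, the VEGF receptor Kdr (log2 -0.29). None of 35 extracellular matrix genes and none of 17 fibroblast, pericyte and smooth muscle genes reached an unadjusted p under 0.05.

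**Figure D4:**
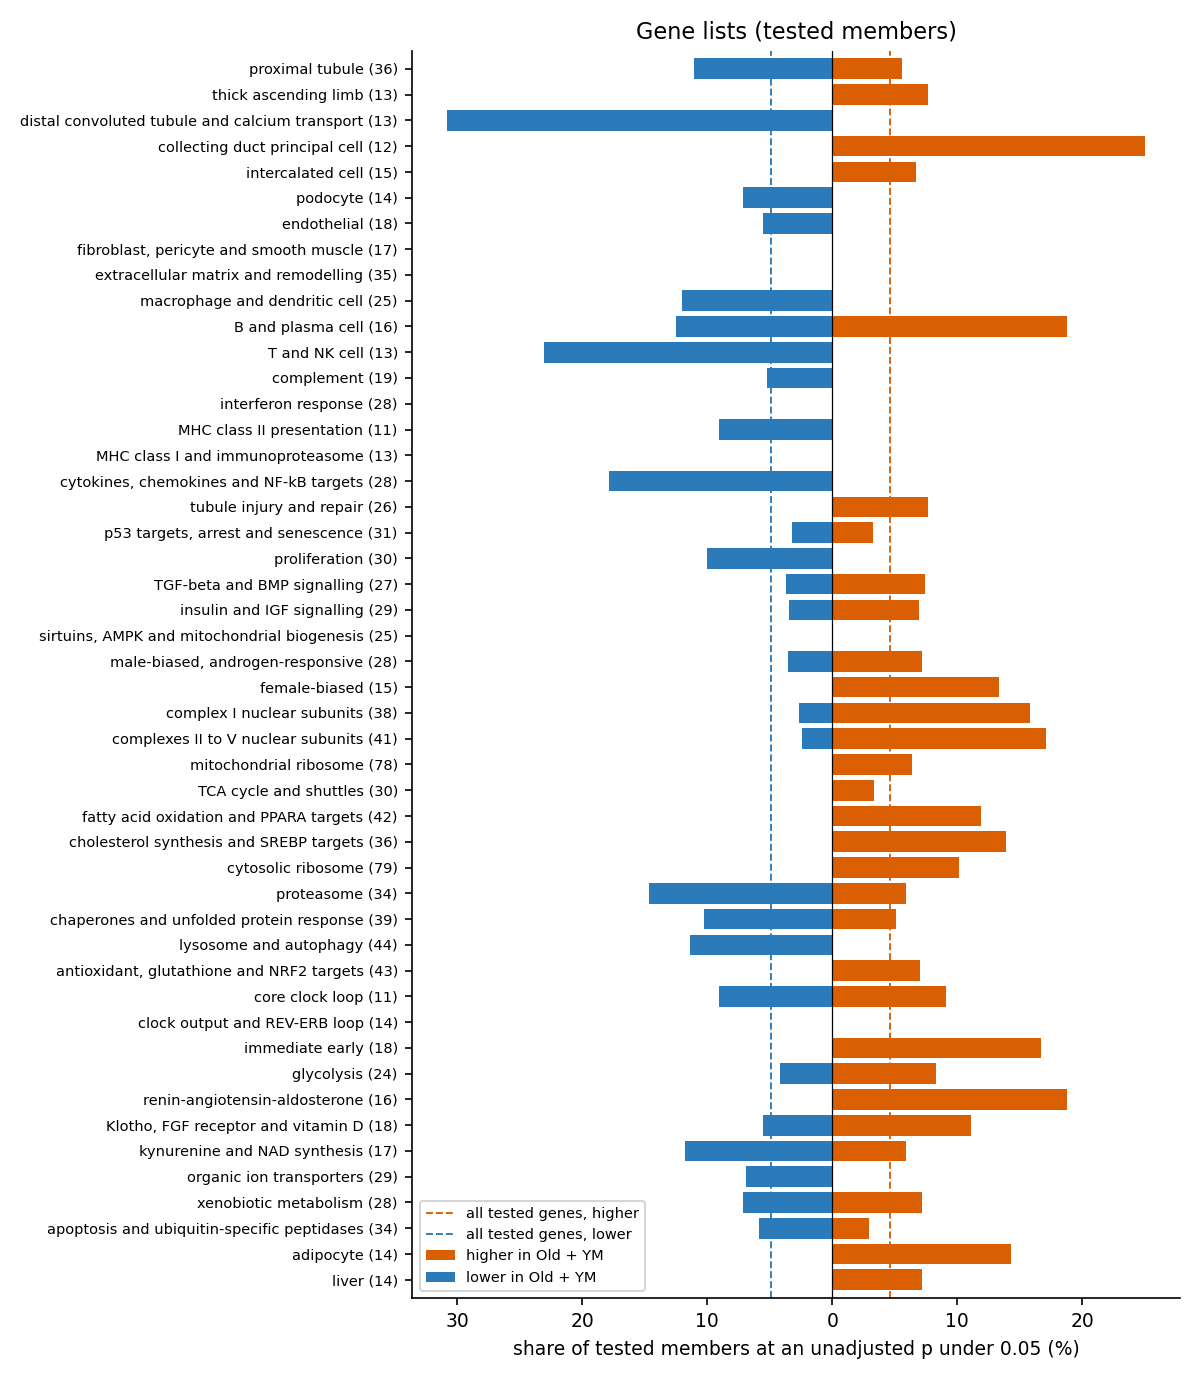
Share of tested members at an unadjusted p under 0.05 (horizontal axis, %), higher in Old + YM to the right and lower to the left, for lists with 10 or more tested members (number in brackets); dashed lines mark all tested genes, 4.58% and 4.9%. Distal convoluted tubule genes reach 30.8% on the lower side and collecting duct principal cell genes 25% on the higher side.

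Several lists of energy metabolism and the ribosome held more members on the higher side than on the lower, by unequal margins. Of 30 TCA cycle and shuttle genes only 1 was higher (3.33%, below the share of all tested genes) and none lower, median log2 -0.01. Of 24 glycolysis genes 2 were higher (8.33%) and 1 lower (4.17%), median log2 -0.07. Among nuclear subunits of complex I 6 of 38 were higher (15.8%) and 1 lower, and among those of complexes II to V 7 of 41 were higher (17.1%) and 1 lower, but the list medians were only log2 0.02 and 0.14. Ndufc2, an accessory subunit of complex I, had 201 to 287 CPM in Old and 323 to 349 CPM in Old + YM (log2 0.37), while Ndufa12, another, had 208 to 368 against 187 to 199 CPM (log2 -0.40). Of complex IV, Cox7b had 383 to 514 CPM in Old and 590 to 630 CPM in Old + YM (log2 0.40). Uqcrc1, a core protein of complex III, had 248 to 330 against 198 to 221 CPM (log2 -0.41). Cytosolic ribosomal protein genes counted 8 of 79 higher (10.1%), Rps6 included, and none lower, median log2 0.09. Rpl30 had 130 to 212 CPM in Old and 251 to 301 CPM in Old + YM (log2 0.60). In the mitochondrial ribosome 5 of 78 were higher (6.41%, near the share of all tested genes) and none lower (4 lower without Old 5). The list median was log2 0.00. The smallest p in that list was that of Mrps31, with 13.7 to 22.4 CPM in Old and 25.5 to 29.8 CPM in Old + YM (log2 0.70). Without Old + YM 2 the count of complex I genes on the higher side was 1, and without Old 5 that on the lower side was 3.

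Fatty acid oxidation and PPARA target genes counted 5 of 42 higher (11.9%) and none lower, with a median log2 of 0.03, and 3 higher without Old + YM 3. Ehhadh, a bifunctional enzyme of peroxisomal beta-oxidation and a target of PPARA, had 13.6, 12.9, 10.8, 13.9 and 10.4 CPM in Old and 22.1, 32.8 and 15.7 CPM in Old + YM (log2 0.93, SE 0.21, edgeR adjusted p = 0.174). Pdk4, a kinase that shuts off pyruvate oxidation when fat is burned, had 0 to 1.30 CPM in Old and 2.38, 4.62 and 7.87 CPM in Old + YM, and Young 5 had 3.15 CPM. In the cholesterol and SREBP target list 5 of 36 were higher (13.9%, but 1 without Old + YM 3) and none lower, at a median log2 of -0.01. The fatty acid elongase Elovl6 had 11.1 to 16.3 CPM in Old and 19.8 to 23.2 CPM in Old + YM (log2 0.59), and the desaturase Fads2 had log2 0.42. Of 43 antioxidant and NRF2 target genes 3 were higher (1 without Old 4) and none lower (3 without Old 5). The mitochondrial peroxidase Prdx3 had 22.998 to 38.03 CPM in Old and 47.2 to 55.1 CPM in Old + YM (log2 0.73), and the glutathione transferase Mgst1 had 20.2 to 58.4 against 59.1 to 66.9 CPM (log2 0.67). None of 25 genes of sirtuins, AMPK and mitochondrial biogenesis reached an unadjusted p under 0.05.

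Immune cell lists pointed in different directions. In 24 of 25 macrophage and dendritic cell genes the fitted change was below 0, median log2 -0.64, and 3 (12%) had an unadjusted p under 0.05. Ms4a7, a macrophage membrane protein, had 2.69, 2.77, 3.96, 4.19 and 12.8 CPM in Old and 4.04, 1.58 and 1.12 CPM in Old + YM. Csf1r, the receptor for macrophage growth factors, had 32.0 to 82.9 against 30.5 to 43.4 CPM. Both were highest in Old 5, and without that library no gene of the list was at an unadjusted p under 0.05 and the median log2 was 0.0064. The summed level of the list was 241 to 1536 CPM in Old, median 322, and 290 to 390 CPM in Old + YM, so apart from its highest library Old lay near Old + YM. All 13 T and NK cell genes had a change below 0, median log2 -0.76, and 3 were at an unadjusted p under 0.05 (1 without Old + YM 1). Without Old 5 the median was -0.13. The summed level of the list was 244 CPM in Old 5, 21.4 to 29.7 CPM in the other Old libraries and 17.8 to 25.9 CPM in Old + YM. Il7r, a receptor of resting T cells, had 1.30 to 2.30 CPM in Old and 0.102 to 0.725 CPM in Old + YM. The chemokine Ccl5, made by activated T cells, had 10.2, 7.56, 5.95, 8.87 and 123 CPM in Old and 4.14, 2.92 and 5.42 CPM in Old + YM, and its log2 change of -2.89 was -0.94 without Old 5. Fewer cells of a type and less RNA per cell cannot be told apart in whole kidney. Of 28 cytokine and NF-kB target genes 5 (17.9%) were lower (2 without Old + YM 2) and none higher. Cxcl16, a chemokine made by tubule cells, had 50.9 to 81.2 CPM in Old and 40.6 to 45.5 CPM in Old + YM (log2 -0.53), and Il34, a ligand of the macrophage receptor above, had log2 -0.70.

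B and plasma cell genes were split, with 3 of 16 higher and 2 lower, and the higher members were antibody genes. Igkc, the constant region of the kappa light chain, had 40.5, 95.6, 56.9, 49.99 and 37.7 CPM in Old and 103, 91.5 and 236 CPM in Old + YM (log2 1.35, SE 0.41). Old + YM 3 was far above the rest, and without it the log2 change was 0.80. Ighg1, the heavy chain of IgG1, had 0 to 1.15 CPM in Old and 3.21, 0.973 and 13.9 CPM in Old + YM. Without Old + YM 3 no gene of the list was at an unadjusted p under 0.05 on the higher side, and without Old 5 none on the lower side. The summed level of the list was 294 to 1210 CPM in Old and 747 to 1662 CPM in Old + YM. None of 28 interferon response genes and none of 13 MHC class I and immunoproteasome genes reached an unadjusted p under 0.05.

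In protein turnover the lower side had the larger counts. Of 34 proteasome genes 5 (14.7%) were lower and 2 higher, of 39 chaperone and unfolded protein response genes 4 were lower and 2 higher, and of 44 lysosome and autophagy genes 5 (11.4%) were lower and none higher. These counts rested on single libraries: the lower side held 0 proteasome genes without Old 4, 2 chaperone genes without Old + YM 1 and 2 lysosome genes without Old 2. Ddit3, the stress-induced transcription factor CHOP, had 15.8 to 27.1 CPM in Old and 11.0 to 16.9 CPM in Old + YM (log2 -0.64). The disulfide isomerase Pdia3 had 194 to 306 against 157 to 193 CPM (log2 -0.40). Grn, the precursor of granulins in lysosomes, had 204 to 403 against 196 to 207 CPM (log2 -0.51), and the protease Ctsz had log2 -0.30. Of 30 proliferation genes 3 (10%) were lower (1 without Old 5) and none higher. Their median log2 of -0.41 turned to 0.03 without Old 5, the library with the highest mean level of this list in Old. Cdc20, an activator of the anaphase-promoting complex, had 3.65 to 6.69 CPM in Old and 2.31 to 3.17 CPM in Old + YM, and its last exon overlaps Elovl1 on the other strand.

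In signalling and hormone lists a few members were on the higher side. Of 16 renin-angiotensin-aldosterone genes 3 were higher (18.8%) and none lower. Enpep, the aminopeptidase that trims angiotensin II, had 4.19 to 14.6 CPM in Old and 19.02 to 22.6 CPM in Old + YM (log2 0.98), and Young 5 had 26.2 CPM. Agt, the angiotensin precursor, had 17.2 to 29.1 CPM in Old and 22.4 to 38.2 CPM in Old + YM (log2 0.52). Kl, the kidney hormone and FGF23 co-receptor Klotho, had 157, 143, 182, 118 and 125 CPM in Old and 230, 232 and 175 CPM in Old + YM. The groups overlapped for Kl, its fold change was 1.47 (log2 0.55, SE 0.21, edgeR adjusted p = 0.424), and Young 5 had 279 CPM against 136 to 162 CPM in the other Young libraries. Of 27 TGF-beta and BMP genes 2 were higher (7.41%) and 1 lower (3.7%), near the shares of all tested genes: the co-receptor Tgfbr3 (log2 0.52) and the BMP target Id1 (log2 0.65) on the higher side and the receptor Bmpr1a (log2 -0.34) on the lower. Of 29 insulin and IGF signalling genes 2 were higher (6.9%) and 1 lower (3.45%): the adaptor Irs1 (log2 0.52) and the kinase subunit Pik3ca (log2 0.27) against the regulatory subunit Pik3r1 (log2 -0.32). In the Klotho, FGF receptor and vitamin D list 2 of 18 were higher, Kl and the receptor Fgfr2 (log2 0.68), and 1 lower, Calb1. Id1, Bmpr1a, Pik3ca, Pik3r1 and Fgfr2 are named to complete these counts, after their values were seen. The immediate early gene Zfp36, which speeds decay of cytokine mRNAs, had 4.29 to 10.5 CPM in Old and 14.1 to 17.8 CPM in Old + YM (log2 0.93).

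A set of 25 kidney genes, chosen with earlier results of these data known, held Usp19 and Arhgef10l, which passed and had been named by those results. At an unadjusted p under 0.05, 4 of the 25 were higher, these with Kl and Lcn2, and 1 was lower. Lcn2, the injury marker NGAL, had 1.43 to 5.49 CPM in Old and 3.42, 11.2 and 4.91 CPM in Old + YM. Injury and repair genes as a list counted 2 of 26 higher and none lower. The second was Spp1, osteopontin, with 160 to 336 CPM in Old and 314 to 434 CPM in Old + YM (log2 0.75). Havcr1, the proximal tubule injury marker KIM-1, had log2 0.50 with an SE of 0.61. Umod (log2 0.12, SE 0.13), Ppargc1a, a master regulator of mitochondria (log2 0.03, SE 0.11), Nfe2l2, the regulator NRF2 (log2 0.11, SE 0.09), the cell cycle inhibitor Cdkn1a (log2 -0.08, SE 0.21) and the collagen Col1a1 (log2 -0.10, SE 0.38) had unadjusted p of 0.385, 0.766, 0.254, 0.722 and 0.793. Changes of the size of these errors would not have been detected.

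Markers of neighbouring tissues were checked. All 14 tested adipocyte genes had a fitted change above 0, median log2 1.45 (0.84 without Old + YM 2), and 2 were at an unadjusted p under 0.05, Car3, a carbonic anhydrase (log2 1.43), and Cidec, a lipid droplet protein. The list's summed level was 714 to 1647 CPM in Old and 1512 to 1727 CPM in Old + YM, and the list includes Pck1, Lpl and Pnpla2, which kidney cells also express. Of the defining markers, Adipoq was at 0 in 2 of 5 Old libraries and at most 1.56 CPM there, and at 0.518 to 4.74 CPM in Old + YM. Plin1 was at 0 in 3 of 5 Old libraries and reached 1.82 CPM in Old + YM, and Lep was at 0 in all 8. In the urothelium list 1 of 9 genes was higher, Upk3a, a plaque protein of the bladder and renal pelvis lining (log2 1.41), and the summed level was 5.11 to 29.6 CPM in Old and 13.1 to 39.2 CPM in Old + YM. Liver genes had a median log2 of 0.37, with 27.1 to 34.4 CPM of Alb in Old + YM and 2.99 to 46.4 CPM in Old. The adrenal enzyme Cyp11b1 was at 0 in all 8 libraries. The part of these tissues in the results above was not tested.

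Genes higher in Old + YM were also high in Young 5, a library from a mouse that received no formula. Of the 672 genes on the higher side, Young 5 was the highest Young library for 461 (68.6%), compared with 25.7% of all tested genes. Their median log2 difference of Young 5 from the other Young libraries was 0.49, and that of the 718 genes on the lower side was -0.20, with -0.03 over all tested genes. For the other Young libraries the median of the genes on the higher side lay between -0.23 and 0.03. Young 5 was part of the mean they were set against, which lowers these values. The Young libraries took part in the spread of the fit but not in the difference of Old + YM from Old. Among 102 genes at least 2-fold higher, with no overlap, an unadjusted p under 0.05 and a mean of at least 2 CPM, Young 5 was the highest Young library for 91. Cebpb, a transcription factor of the acute phase response, was 1 of the 11 others, with 4.28 to 8.09 CPM in Old, 9.21 to 14.1 CPM in Old + YM and 8.81 CPM in Young 5, below Young 1 at 11.6 CPM.

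Some of these genes were low in Old and in Young 1 to Young 4. The 5 that follow, like Cebpb, were chosen after their values were seen. Crtc2, a coactivator of CREB in fasting metabolism, had 0 to 0.626 CPM in Old, 8.18, 14.2 and 3.99 CPM in Old + YM, at most 0.304 CPM in Young 1 to Young 4 and 4.21 CPM in Young 5. Btf3, a ribosome-associated factor for new proteins, had 0 to 1.15 CPM in Old, 6.73, 19.5 and 8.28 CPM in Old + YM, at most 1.52 CPM in Young 1 to Young 4 and 11.96 CPM in Young 5. Sdhd, the membrane anchor of respiratory complex II, had 10.5, 2.97, 11.0, 2.53 and 8.39 CPM in Old and 72.3, 118 and 55.8 CPM in Old + YM, and Young 5 had 64.4 CPM where Young 1 to Young 4 had 2.07 to 16.6 CPM. Spint2, a protease inhibitor of epithelia, had 3.70 to 17.2 CPM in Old, 50.7 to 87.0 CPM in Old + YM and 51.0 CPM in Young 5. Etfa, an electron carrier of fatty acid oxidation, had 50.9 to 115 CPM in Old, 144 to 167 CPM in Old + YM and 164 CPM in Young 5. In these 5 genes Old + YM and Young 5 stood together above Old and Young 1 to Young 4. The choice was made with that pattern in view, so it does not show how common the pattern is.

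A score was made from the 200 genes highest and the 200 lowest in Young 5 relative to Young 1 to Young 4, chosen without any aged library, as the mean log2 difference between both sets. The mean score of Young 1 to Young 4 was then subtracted from that of every library. Young 5 scored 4.06, and its fellow Young libraries -0.46 to 0.39, a gap that the choice of genes built in. Old + YM libraries scored 1.92, 2.17 and 1.75, Old libraries 1.15, 0.90, 1.38, -0.15 and 1.18, and Old + PM libraries 1.45, 0.64 and -0.36. The 3 Old + YM libraries were thus the highest of the 11 aged ones. With the score as a covariate 11 genes passed, all higher, among them Usp19, Rps6, Arhgef10l and ND3. Without Young 5 in the fit 39 genes passed, 37 of them higher. Base composition also differed: the last 300 bases of the transcripts had a median GC of 37% in genes on the higher side (96.6% matched), 43% on the lower side and 42.3% in all tested genes. The part of library preparation in the results was not tested.

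**Figure D5:**
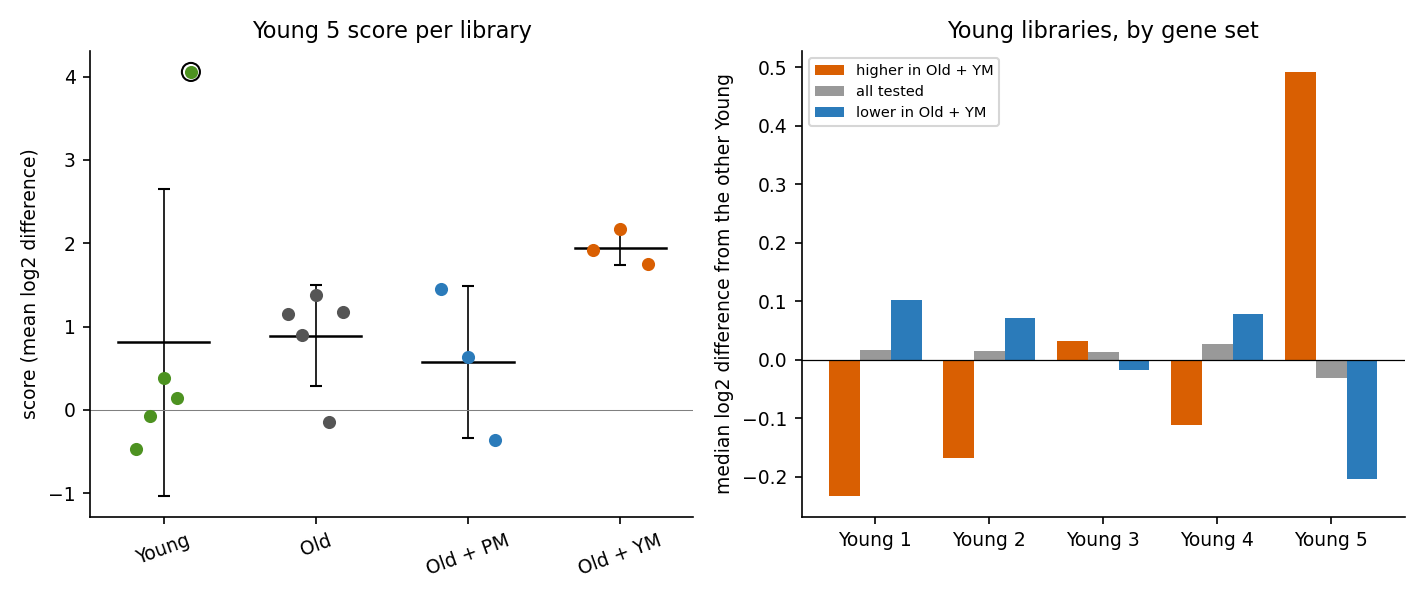
Left, score of each library on the genes that set Young 5 apart (vertical axis, mean log2 difference), points are libraries, bars the mean, whiskers the SD and the ring Young 5. Right, median log2 difference of each Young library from the other Young libraries for genes higher in Old + YM, all tested and lower in Old + YM; Young 5 is at 0.49 for the higher set, and Old + YM libraries score 1.75 to 2.17 on the left.

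Differences from the other formula and from Young use some of the same libraries, so they are given as values side by side. Between Old + YM and Old + PM no gene passed in edgeR (0% of 14665, smallest adjusted p 0.0594, for Usp19), while 1878 had an unadjusted p under 0.05, 990 of them higher in Old + YM. DESeq2 called 58 genes there, 45 higher and 13 lower. Against Old + PM the log2 change was 1.11 (SE 0.19) for Usp19, 1.06 (SE 0.21) for Rps6, 1.15 (SE 0.25) for Arhgef10l, 3.63 (SE 0.76) for ND3, 1.12 (SE 0.24) for Ehhadh and -0.36 (SE 0.16) for Uap1l1. In Old against Young 1995 genes passed (13.6%). Arhgef10l was lower in Old than in Young (log2 -1.07, edgeR adjusted p = 0.00147), and so was Ehhadh (log2 -0.70, adjusted p = 0.0173), and both had higher levels in Old + YM than in Old. With 1 library left out the Ehhadh change was -0.78 to -0.52, weakest without Young 5, and its edgeR adjusted p reached 0.0565. For Arhgef10l the change was -1.13 to -0.79, also weakest without Young 5. ND3 was higher in Old than in Young (log2 3.60, adjusted p = 0.0121) and Hao2 likewise (log2 0.94, adjusted p = 1.98e-05), and both were higher still in Old + YM. Usp19 (log2 -0.40, adjusted p = 0.071) and Rps6 (log2 0.22, adjusted p = 0.409) did not pass between Old and Young.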

How the data were processed

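Kidney RNA of 16 libraries was analysed from the gene counts the authors deposited, 1 table per library, as raw counts per gene symbol. Bowtie2, bedtools and mm10 are named per the submitters' processing notes, without versions. No source used here gives the annotation, whether counting was stranded, or how multi-mapped reads were handled. Total counts were 8223008 to 10914515, and counts of a gene limit its precision at low levels.

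Genes were kept by filterByExpr with a minimum count of 10, which removed 26214, and scaled by TMM. Groups were compared with edgeR 4.0.16 (quasi-likelihood, robust, two-sided) in R 4.3.3 in 1 fit of all 16 libraries, with Benjamini-Hochberg adjustment over 14665 genes and a threshold of 0.05. The fit was tested on simulated data. Shares of counts were compared by exact permutation over 56 assignments. DESeq2 1.42.0, limma 3.58.1 (voom), other scalings, filters and subsets were alternatives. Leaving out Young 5 and using its score as a covariate were chosen after seeing the data.

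Genes were named by this rule: fewer than 10 passed in each direction, so the 12 with the smallest p and a mean of at least 5 CPM were taken on each side, with passing list members, up to 2 members of a list with the smallest p, and a set of 25 kidney genes. The comparison, lists and alternatives were chosen with earlier results of these data known. Positions are from GENCODE M21 (GRCm38) and promoters from RefSeq (GRCm38.p6). The labels do not say whether replicate numbers pair libraries of Old + YM and Old, and the main fit did not use them. Results on some genes are not reported here.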

Additional observations from a re-analysis of the deposited data

Results flagged for a closer look

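Of 162 groups of 5 libraries checked for a library far from the others by Dixon's gap, 23 had one, and chance flags about 1 in 20 groups. Young 5 was that library in 17. Crtc2, Btf3, Sdhd, Spint2 and Etfa, among these 17, were chosen after their values were seen, so the number cannot be set against chance. It was highest at 62.4 CPM for Usp19, 42.3 for Arhgef10l, 3.02 for ND3, 194 for Micos10, 164 for Etfa, 33.1 for Mgst1, 380 for Ndufc2 and 64.4 for Sdhd. It was also highest at 170 CPM for Rpl30, 33.1 for Aqp3, 15.1 for Scnn1g, 295 for Cldn10, 279 for Kl, 4.21 for Crtc2, 12 for Btf3 and 51 for Spint2. It was lowest for mt-Rnr1, at 15200 CPM.

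Old 4 was highest in Old for Ndufa12 (368 CPM) and Miox (4010 CPM), and Old 5 for Ms4a7 (12.8 CPM) and Ccl5 (123 CPM). Young 3 was lowest in Young for Tnfaip8 (342 CPM). Young 4 had 0.108 CPM of Ighg1, which was at 0 in the other Young libraries.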

How the results depend on the processing

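Against Old, 3 genes higher in Old + YM and none lower passed. With DESeq2 the counts were 34 and 15, with no filter 5 and 1, in a fit of the 2 groups only 18 and 2, with limma-voom 5 higher, and without Old 4, Old + YM 3 and Old + PM 3 together 1 higher. Without Young 5 they were 37 and 2, and with its score as a covariate 11 higher. Usp19, Rps6 and Arhgef10l passed in each of these except the one without Old 4, Old + YM 3 and Old + PM 3, where only Atn1 passed. They also passed with upper quartile scaling, a stricter filter and library sizes without mitochondrial genes. Old 4, Old + YM 3 and Old + PM 3 had the lowest mean log2 CPM of circadian clock output genes in their groups. The values were 4.22, 4.85 and 4.69, against 5.17 to 5.41 in the other libraries of these groups. Whether the time of sampling differed was not tested. The count of genes lower at an unadjusted p under 0.05 was 403 without those 3 libraries and 474 with the score. Against Old + PM, where edgeR called none, genes higher were 45 with DESeq2 (13 lower), 8 with no filter, 2 with limma-voom, 13 in the fit of the 2 groups only, 1 without the 3 libraries and 2 with the score. At an unadjusted p under 0.05 there were 601 higher and 412 lower without the 3 libraries, and 591 and 355 with the score. Old against Young had 1575 genes lower without them. The median log2 of the proximal tubule, complex I, mitochondrial ribosome and cholesterol lists, all near 0, changed sign when 1 library was left out. The cause of these shifts was not tested.

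Leaving out 1 Old or Old + YM library at a time gave 0 to 1 genes higher and 0 lower in Old + YM against Old. At an unadjusted p under 0.05 it gave 413 (without Old + YM 2) to 811 higher (908 without Young 5) and 413 (without Old 4) to 741 lower. Against Old + PM it gave 570 to 1424 higher and 327 to 1118 lower, lowest without Old + PM 3. Old against Young gave 548 (without Old 5) to 1262 higher and 596 (without Young 4) to 1393 lower. The mitochondrial share differed by -1.70 to 1.69 percentage points, and was -0.160 without Old 1, -0.118 without Old 5 and -1.70 without Old + YM 2.

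With the replicate number as a block 5 genes were higher and 1 lower against Old, and 1 was higher against Old + PM. The deviations of same-numbered Old + YM and Old libraries correlated at 0.038, 0.010 and -0.010 (numbers 1, 2 and 3), and none matched its own number best. The labels do not say what the number stands for. So few correlations cannot show whether same-numbered libraries were handled together. Depth limits statements on genes of a few CPM, where 1 CPM is about 8.2 counts.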
